A study of Mus musculus with 12 samples.

Results

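Of the genes that process antigens and load them onto MHC molecules, 7 carried a peak of N4-acetylcytidine (ac4C) in at least 1 of 6 peak lists from mouse peritoneal macrophages, phagocytes of the abdominal cavity, kept with interferon-γ (IFN-γ). The genes are Tapbp, Canx and Calr of the MHC class I pathway, and Cd74, Ctss, Ctsl and Ifi30 of the class II pathway. They were selected on their peaks, from listed genes of these pathways on which the authors' annotation put a deposited peak in any list. A further class II gene with a peak, Lgmn, is not among the 7 and is described separately. In all, 1779 protein-coding genes had a peak in some list, and these are 7 of them, out of 37 genes listed for the pathways. Which lists hold their peaks, and how strong those peaks are, is therefore described without a test.

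MHC class I molecules show peptides from inside the cell to CD8 T cells, and class II molecules show peptides from engulfed material to CD4 T cells. Class I chains fold in the endoplasmic reticulum, where calnexin (Canx) and calreticulin (Calr) hold them by their sugar chains and tapasin (Tapbp) bridges them to the peptide transporter TAP. Class II molecules leave the endoplasmic reticulum with the invariant chain (Cd74) in their groove, lysosomal proteases such as cathepsins S (Ctss) and L (Ctsl) cut that chain away, and the thiol reductase GILT (Ifi30) opens disulphide bonds of engulfed proteins. IFN-γ is known to induce many genes of both pathways in macrophages. The mark itself, ac4C, is an acetylated cytidine that the acetyltransferase NAT10 places in ribosomal, transfer and messenger RNA.

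Cultured peritoneal macrophages were sampled at 0, 24 and 48 h with IFN-γ, and RNA bound by ac4C pull-down was sequenced (RIP-seq) beside total RNA, with 2 samples in each of 6 groups. Every group carries the IFN-γ label, and no group was kept without it for 24 or 48 h, so IFN-γ and elapsed time cannot be told apart. The labels used here name no strain, sex or age of the mice, and do not say whether samples of a group are separate animals or separate dishes. Each time had 2 peak lists, numbered without any order or pairing, and which library gave which list is not stated. The lists held 611 to 1151 peaks. With an overlap of at least 1 base, list 1 shared 37.4% and list 2 45.0% of its peaks with the other list of 0 h. These shares were 26.9% and 30.7% for the 24 h lists, then 28.2% and 31.3% for the 48 h lists. Input coverage here is the local background that the deposited fold and p imply for a peak; which library served as that background is not stated. The depth of the input was judged from 1 statistic, the lowest input coverage in each list. Relative to the deepest list that value stood at 100% and 91.4% in the 0 h lists, 73.7% and 80.8% in the 24 h lists, and 57.2% and 44.5% in the 48 h lists.

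Counting peaks by their centre, no single list held more than 4 of the 7 genes. At 0 h, list 1 had a peak on Tapbp, Canx, Calr and Ifi30, and list 2 on Tapbp and Ctsl. At 24 h, list 1 had a peak on Ctss alone and list 2 on Ctss and Cd74. At 48 h, list 1 had a peak on Canx and Ctss and list 2 on Ctss alone. Only Tapbp and Ctss had such peaks in both lists of any one time. With any overlap of a peak with the gene counted, Ctsl also had a peak in both 0 h lists, as described below.

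Both pathways had peaks in the early and in the late lists. A 24 h or 48 h peak was found on 3 of the 7 genes, beside 69.1% of all protein-coding genes with a peak. A 0 h peak was found on 5 of the 7, beside 64.9%. A peak in 1 list only, by its centre, was found for 4 of the 7, Calr, Ctsl, Cd74 and Ifi30. The share of all genes with a peak was 51.9%. With any overlap counted, Ctsl had a peak in 2 lists. These shares include the lists that chose the genes, and nothing is read from them. A missing peak does not show a low transcript level, and in bulk RNA fewer cells of a type and less RNA per cell cannot be told apart.

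**Figure D1:**
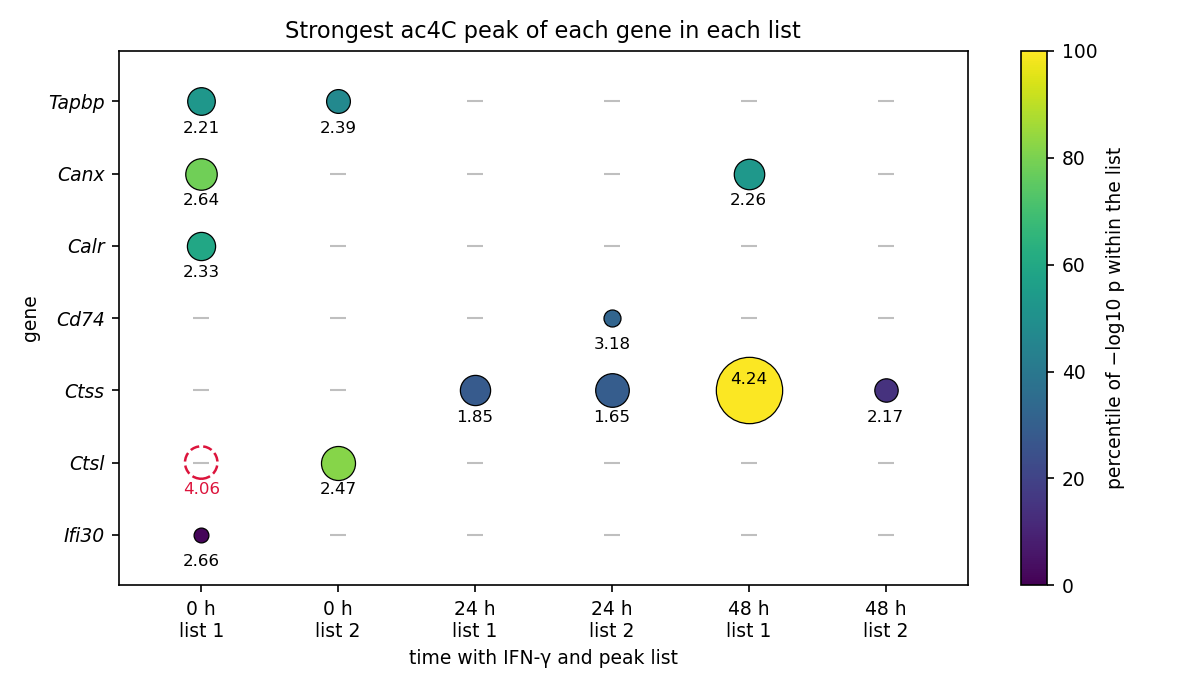
Strongest peak of each gene in each of the 6 lists, with times from left to right. Circle area grows with the pull-down fragments at the summit, colour gives the percentile of −log10 p among the peaks of that list, the number under or inside a circle is the authors' fold enrichment, and a dash marks no counted peak. The red dashed circle is the Ctsl peak at a fold of 4.06 whose centre the authors' annotation put outside genes. Among the counted peaks, that of Ctss in 48 h list 1 has the highest percentile, 99.5.

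Tapbp (ENSMUSG00000024308), tapasin, had a peak in both 0 h lists and in none of the 4 lists at 24 and 48 h, a pattern called a sustained loss here. That pattern was found for 101 of the 1779 genes (5.68%). In 0 h list 1 the peak lay on chromosome 17, 34147351 to 34147904 (GRCm39), with a fold enrichment of 2.21, a −log10 p of 6.01 and a q of 0.0191. In 0 h list 2 it lay at 34147227 to 34147749, with a fold of 2.39, a −log10 p of 5.22 and a q of 0.101. Begin, centre and end of both were annotated to the 3′ UTR. The peaks overlapped by 398 bases, which is 72.0% of the first and 76.2% of the second, and their main summits lay 59 bases apart. A second, weaker summit stood in list 2 alone, 340 bases from the summit of list 1, at a fold of 1.93. Both peaks were of middling rank, at percentiles of 53.1 and 46.9 of −log10 p in their lists.

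The fragments behind the Tapbp peaks were moderate in number. The main summits held 94 pull-down fragments in list 1 (95% exact Poisson interval 76.0 to 115.0) and 66 in list 2 (51.0 to 84.0). Input coverage there was 18.0 and 12.4. Scaled for depth, pull-down stood at 2.28 times input in list 1, with a 95% interval of 1.37 to 4.02 from the counting error of both libraries. Rescaled to the input coverage of the shallowest list, 48 h list 2, the peaks kept a −log10 p of 3.18 and 3.27, above the value of 2.31 to 2.33 at which the lists end. That rescaling keeps the fold and the local input level of 0 h. The input level at Tapbp in the later lists is not known from peak lists.

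Canx (ENSMUSG00000020368), the membrane-bound chaperone calnexin, had a peak in 1 list at 0 h, none at 24 h and 1 list at 48 h. The region in common lay in the 3′ UTR on chromosome 11, at 50186449 to 50186932 in 0 h list 1 and at 50186469 to 50186867 in 48 h list 1, the second wholly within the first. The 0 h peak had 2 summits, one at a fold of 2.64 with 127 fragments (105.9 to 151.1) and a −log10 q of 5.47, the other at a fold of 1.63 with 117 fragments (96.8 to 140.2) and a q of 1. The single summit at 48 h, at a fold of 2.26 with 118 fragments (97.7 to 141.3) and a q of 0.153, lay 16 bases from the weaker 0 h summit and 273 bases from the stronger. The 48 h peak still covered the position of the stronger 0 h summit, but had no separate summit there. A further 3′ UTR peak of 0 h list 1, at 50185744 to 50186180, had a fold of 1.69 and a q of 1.

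Calr (ENSMUSG00000003814), the soluble counterpart of calnexin, had a peak in 0 h list 1 only. It began in the last exon and had its centre in the 3′ UTR, on chromosome 8 at 85569180 to 85569457. Its fold was 2.33, its q 0.00392, and its summit held 99 fragments (80.5 to 120.5) over an input of 18.0, a ratio of 2.4 (95% interval 1.44 to 4.22). The other 0 h list had no peak there, so the Calr peak was not repeated at its own time.

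Ctss (ENSMUSG00000038642), cathepsin S, showed the reverse order of times, with a peak in all 4 lists at 24 and 48 h and in neither 0 h list. This sustained gain was found for 8 of the 1779 genes (0.45%). The 7 Ctss peaks lay on chromosome 3 in 5 separate regions, and no region was found in all 4 lists. In 24 h list 1 they covered exon 5 (95452641 to 95452863, fold 1.85) and exon 7 (95457244 to 95457584, fold 2.29). In 24 h list 2 they covered exon 3 (95446029 to 95446252, fold 1.85) and exon 4 (95450322 to 95450545, fold 1.65). In 48 h list 1 they covered exon 3 (95445946 to 95446154, fold 3.07) and the last exon (95463467 to 95463679, fold 4.24). In 48 h list 2 a single peak covered exon 3 (95446029 to 95446246, fold 2.17).

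Exon 3 was the one recurrent place on Ctss, with a peak in 24 h list 2 and in both 48 h lists. The exon 3 peaks of 24 h list 2 and 48 h list 2 began at the same base and overlapped by 217 bases, and each overlapped that of 48 h list 1 by 125 bases. Their summits held 81 fragments in 24 h list 2, 70 in 48 h list 1 and 63 in 48 h list 2, over 14.0, 6.0 and 7.0 input fragments. The ratio of pull-down to input was 1.91 (95% interval 1.07 to 3.64), 3.42 (1.49 to 9.64) and 2.34 (1.07 to 6.04), intervals that overlap one another. The 24 h list 1 peaks shared no region with any other list. Peaks over exons 3, 4, 5 and 7 had a begin or an end in the flanking intron, and they were 208 to 340 bases long.

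A single Ctss peak was strong. The last-exon peak of 48 h list 1 held 618 fragments (570.2 to 668.7) over 42.0 of input, a ratio of 4.31 (95% interval 3.15 to 6.05). Its −log10 p of 56.52 had rank 4 among the 674 peaks of that list. The other 48 h list had no peak at this place. The same counts rescaled to its input coverage would give a −log10 p of 43.84. That rescaling keeps the fold and the local input level of 48 h list 1. The levels at this place in the other list are not known from peak lists, and why the peak was not repeated was not tested. Of the 50 strongest peaks of 48 h list 1, 38 overlapped a peak of 48 h list 2. The other 6 Ctss peaks had percentiles of 14.4 to 58.8 in their lists. Of these, 5 had a q of 1 and the exon 3 peak of 48 h list 1 a q of 0.0505.

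**Figure D2:**
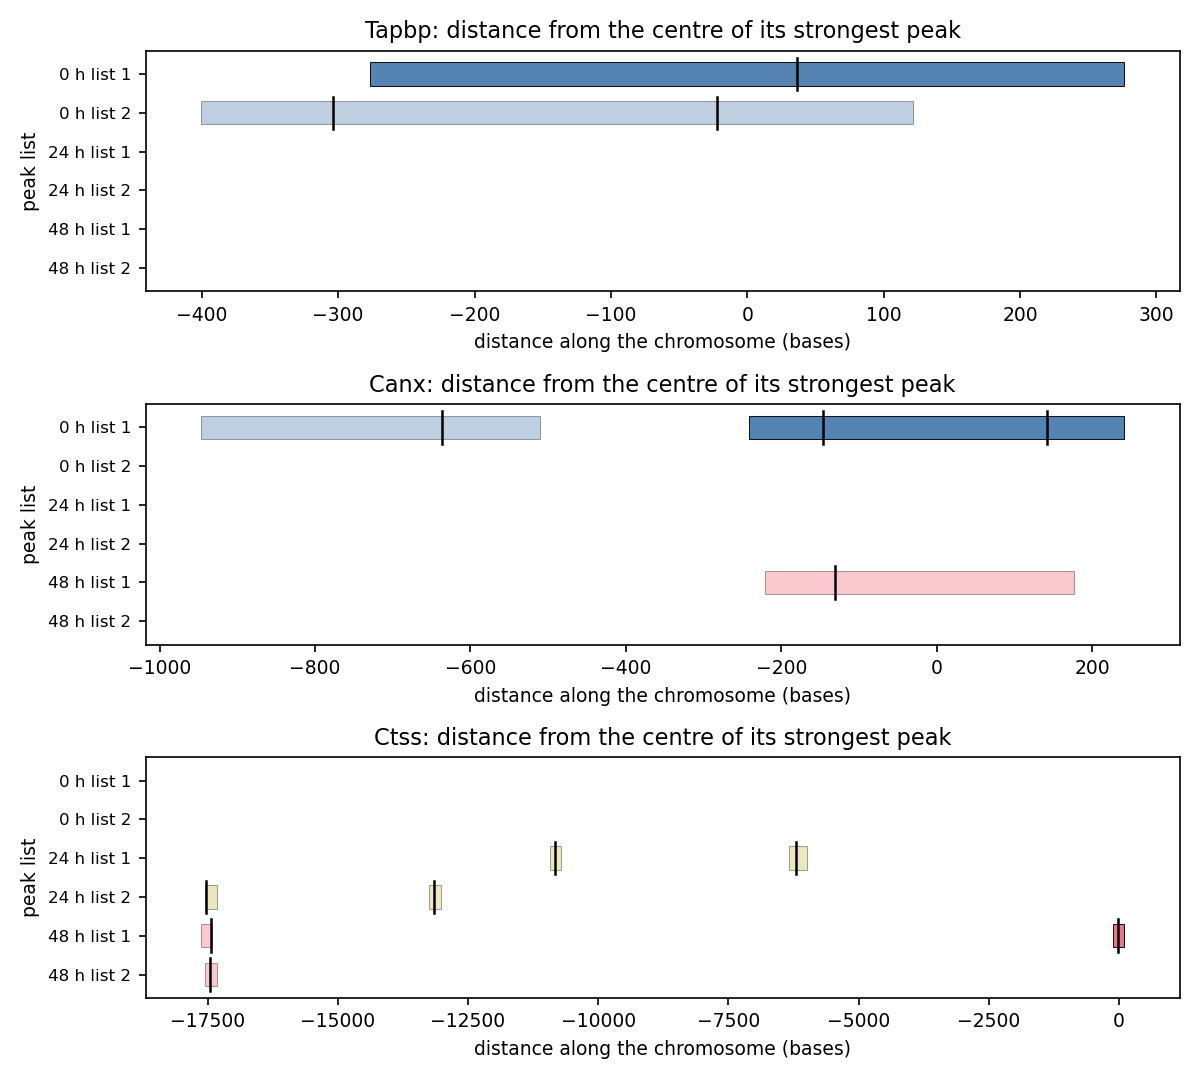
Peaks (bars) and summits (black ticks) of Tapbp, Canx and Ctss in each list, as distance in bases from the centre of the gene's strongest peak. Dark bars have a q of 0.05 or less and pale bars a higher q. Tapbp has overlapping peaks at 0 h only, Canx shares 1 region between 0 h list 1 and 48 h list 1, and the 7 Ctss peaks fall into 5 regions, of which the leftmost, exon 3, recurs in 3 lists.

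Ctsl (ENSMUSG00000021477), cathepsin L, had its peaks at 0 h, at a different place in each list. In 0 h list 2 the peak lay in the 3′ UTR on chromosome 13, 64511621 to 64511902, with a fold of 2.47, 151 fragments (127.9 to 177.1) and a −log10 q of 6.27. In 0 h list 1 a peak lay some kilobases away, at 64515700 to 64515941, with a fold of 4.06, 136 fragments (114.1 to 160.9) and a −log10 q of 13.98. The authors' annotation placed the begin of that peak in exon 4 and its end in exon 5 of Ctsl but called its centre intergenic, so it is not counted above. Of the 4753 peaks of all lists, 3 had begin and end in a gene and the centre outside. With any overlap counted, Ctsl had a peak in both 0 h lists and in no later list, like Tapbp, though without a region in common. Both Ctsl peaks stood high in their lists, at percentiles of 93.2 and 81.7, and both kept a −log10 p of 9.25 and 6.02 at the lowest input coverage.

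Cd74 and Ifi30 rested on few fragments. Cd74 (ENSMUSG00000024610), the invariant chain, had a last-exon peak in 24 h list 2 on chromosome 18, 60945221 to 60945495, with 26 fragments (17.0 to 38.1) over an input of 2.01, a fold of 3.18 and a q of 1. The same peak overlapped Mir5107, a microRNA gene. Ifi30 (ENSMUSG00000031838), GILT, had a peak over exon 5 in 0 h list 1 on chromosome 8, 71216371 to 71216595, with 16 fragments (9.1 to 26.0) over 2.0 of input. Its fold was 2.66. The ratio of pull-down to input was 3.49 for Ifi30, with a 95% interval of 0.82 to 31.33, and 4.27 for Cd74. With a deposited p of 0.00453 from peak calling, the peak stood at the 1.2 percentile of its list. No threshold is stated, but the lists end near a p of 0.005. Genes just outside have no deposited value. At the lowest input coverage neither Cd74 (p = 0.00554) nor Ifi30 (p = 0.013), recomputed as an exact Poisson tail within a single list, kept a p of 0.005 or less.

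Across the 7 genes most peaks had a fold below the median of all peaks in their list and an input coverage above it. The 16 counted peaks had folds of 1.65 to 4.24 with a median of 2.31, against medians of 2.94 to 3.35 over all peaks of a list, and 1 of the 16 had a fold of 4 or more, beside 22.1% of all peaks. A q of 1 was found for 8 of the 16, beside 34.0% of all peaks, and a q of 0.05 or less for 5, beside 43.8%. Input coverage at their summits was 2.45 to 89.9 times the lowest of the list, with a median of 22.0, against medians of 5.9 to 8.25 over all peaks of a list. Counting every summit, with that of the intergenic-centred Ctsl peak, there were 19, and at 14 of them input coverage was within 0.005 of a whole number of fragments. The interval of pull-down over input lay above 1 at 12 of these 14, the exceptions being Ifi30 and the weaker summit of Tapbp in 0 h list 2. Peaks were found by this excess, so its being above 1 is not a separate result.

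**Figure D3:**
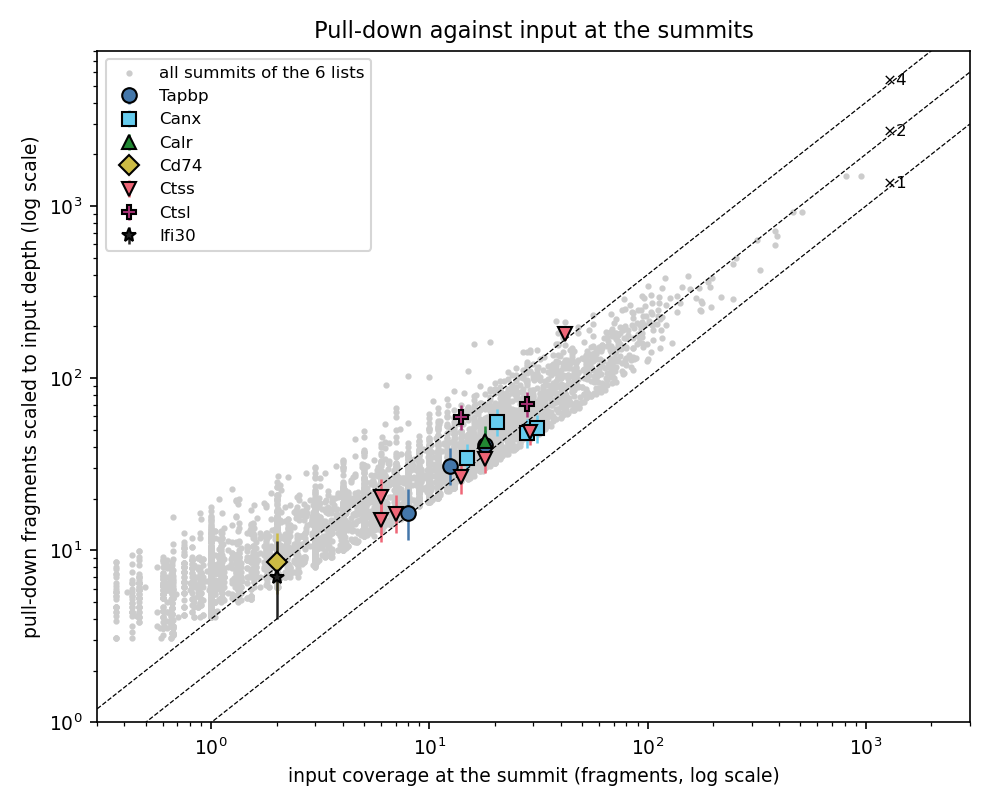
Pull-down fragments at each summit, scaled to the input depth of the list, against input coverage, both on log scales. Coloured points are the 19 summits of the 7 genes with 95% Poisson intervals of the fragments, grey points all summits of the 6 lists, and dashed lines mark 1, 2 and 4 times input. The summits of Cd74 and Ifi30 lie at an input near 2, and the Ctss summit with 618 fragments lies just above the line of 4.

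Peaks of Tapbp, Canx, Calr and Ctsl had their centres in 3′ UTRs, and those of Ctss, Cd74 and Ifi30 in the last exon or other exons. In the 24 h and 48 h lists 1 of 9 peaks of the 7 genes had its centre in a 3′ UTR, that of Canx, beside 46.4% of all peaks of those lists. In the 0 h lists 6 of 7 did, beside 53.2% of all peaks. Exons other than the last held 6 of the 9 later peaks, all of Ctss, beside 18.7% of all later peaks, and 1 of the 7 peaks at 0 h, that of Ifi30, beside 13.4%. Ctss gave 7 of the 9 later peaks, so the later places are largely those of 1 gene. All 6 peaks of the class I genes Tapbp, Canx and Calr lay in 3′ UTRs, beside 49.4% of all peaks. Of the 10 peaks of the class II genes among the 7, that of Ctsl did, and 7 were of Ctss alone. Lgmn, the class II gene described separately, had a 3′ UTR peak in 4 lists. No contrast of the pathways is read from these places. No peak of the 7 genes had its centre in a 5′ UTR or an intron, places that held 3.07% and 5.13% of all peaks.

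**Figure D4:**
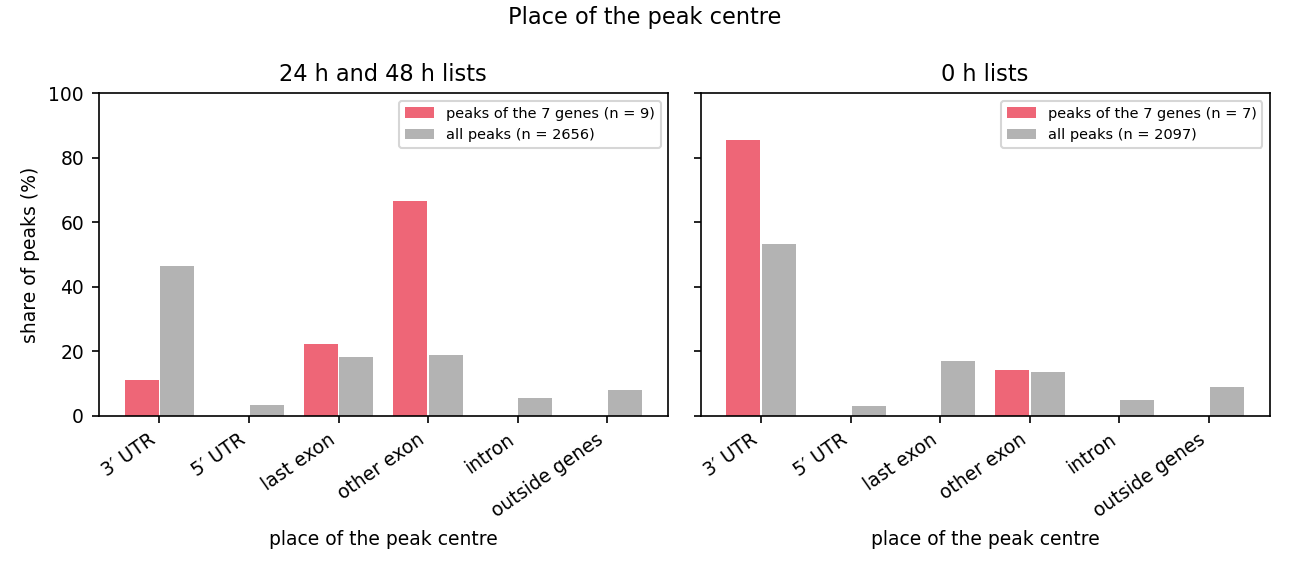
Share of peak centres by place in the transcript, for the 24 h and 48 h lists at the left and the 0 h lists at the right. Red bars are the peaks of the 7 genes (9 later, 7 at 0 h) and grey bars all peaks of the same lists (2656 and 2097). Peaks of the 7 genes stand in 3′ UTRs for 11.1% at the later times and 85.7% at 0 h.

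Tapbp and Ctss thus had opposite list patterns. The Tapbp loss was made of 1 region with overlapping peaks. The Ctss gain had 1 recurrent region, exon 3, in 3 of the 4 later lists, and 24 h list 1 had its Ctss peaks over other exons. At a q of 0.05 or less neither pattern was left, since Tapbp then had a peak in 0 h list 1 only and Ctss in 48 h list 1 only. At the lowest input coverage Tapbp kept its pattern, and Ctss had peaks in 3 of the 4 later lists, since the exon 3 and exon 4 peaks of 24 h list 2 had p = 0.0129 and p = 0.0073 as an exact Poisson tail within that list. The 0 h lists, which had no Ctss peak, had the deepest input but not the deepest pull-down. Pull-down depth, from the same lowest input coverage and each list's factor, relative to the deepest list, was 91.5% and 78.0% in the 0 h lists, 100% and 98.0% in the 24 h lists, then 78.0% and 68.5% in the 48 h lists. The part of depth in the Ctss pattern was not tested.

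Most genes of the pathways had no peak, as was true of protein-coding genes at large. Of 22 genes of class I presentation 3 had one (13.6%), the chaperones above, beside 8.12% of all 21896 protein-coding genes. The other 19, among them the MHC chains H2-K1 and H2-D1, B2m (β2-microglobulin), the transporter genes Tap1 and Tap2 and the immunoproteasome genes Psmb8, Psmb9 and Psmb10, had none in any list, under centre or any overlap. Of 15 genes of class II presentation 5 had one (33.3%), beside the same 8.12%. Those without a peak were 10, including the class II chains H2-Aa, H2-Ab1 and H2-Eb1 and the transactivator Ciita. Both pathway shares lay above that of all genes, and no test was made. The gene lists, here and below, were chosen with earlier results of these data known, so nothing is read from their shares. The share of all genes includes genes that macrophages may not express.

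The fifth class II gene was Lgmn, legumain, the asparaginyl endopeptidase of lysosomes, which is not among the 7 chosen genes. Its 3′ UTR peak lay on chromosome 12 from 102360442 in both 0 h lists, in 24 h list 1 and, 2 bases further on, in 48 h list 2. The folds were 4.07 and 4.58 at 0 h, 4.4 at 24 h and 5.03 at 48 h, with 361, 311, 146 and 93 fragments. Unlike Ctss, Lgmn had its peaks in the same region each time. Among 13 other cathepsins and cathepsin inhibitors, 0 h list 1 held a peak of Ctsd (cathepsin D) in its 3′ UTR. That peak had a fold of 1.17 and stood at the 1.8 percentile of its list. Ctsk (cathepsin K), whose gene neighbours Ctss, had intron 1 peaks at folds of 3.78 in 24 h list 1 and 6.49 in 48 h list 1, both again at later times only.

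Other genes that bear on presentation had peaks for 2 of 11 regulators of MHC genes (18.2%) and 2 of 7 costimulatory and coinhibitory genes (28.6%), beside the 8.12% of all protein-coding genes. Of the regulators, Nfya, a subunit of the CCAAT-binding factor NF-Y, had a peak in 0 h list 2, at the 78.7 percentile. Irf1, an interferon-induced transcription factor, had one in 24 h list 1, with 11 fragments and at the 0.4 percentile. Of the costimulatory and coinhibitory genes, Cd274 (the inhibitory ligand PD-L1) had a 3′ UTR peak in 4 lists at folds of 2.47 to 3.78, and Cd80, a ligand of CD28, an intron 3 peak in 48 h list 1. Markers of other cells that carry class II molecules had no peak: 0 of 7 for B cells and 0 of 6 for dendritic cells. The same was true of 0 of 6 for T cells, 0 of 5 for neutrophils and 0 of 4 for mast cells, and of 6 mesothelial markers Wt1 had a peak in 48 h list 2. Only 2 of 11 macrophage markers, Itgam and Lyz2, had one, and with 8.12% of all genes having a peak, lists this short do not tell which cells were present, and the part of other cells in these peaks was not tested.

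Some genes shared the list pattern of a member closely. The likeness was the mean difference between a gene and the member in the percentile of −log10 p over the lists that hold their peaks. Nearest to Tapbp, among 100 other genes with peaks in the 0 h lists alone, were Tec at 2.4 percentile points, Xpnpep1 at 4.5 and Pacs2 at 4.9, over 2 lists. Nearest to Canx, among 36, were Klhl9 at 5.7, Sf3b2 at 6.2 and Nudcd2 at 9.1, over 2 lists and all in 3′ UTRs. Nearest to Ctss, among the 7 other genes of its pattern, were Zc3h11a at 20.6, Rbpj at 23.7 and Yme1l1 at 28.5, over 4 lists. With fewer genes to choose from and more lists, these distances cannot be compared with those of Tapbp and Canx.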

How the data were processed

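The submitters' processing notes name GRCm39, MACS2 2.1.0 and BWA 0.7.12, without settings or the control library. Fold enrichment (a ratio) and −log10 p and −log10 q are the authors' deposited values, per the file headers. PeakSummit was read as an offset from the peak start. Starts are printed as deposited. Input coverage means the background these values imply; whether it is total RNA is not stated, and no file of the total RNA samples was used here.

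A peak was 1 region with the strength of its best summit, and belonged to a gene when its centre lay in that gene's body. Pull-down fragments and input coverage were recovered from the deposited fold and p as the whole number k, times 1 factor per list (0.2595 to 0.4681), that gives both within 0.005 of −log10 p; 100% of summits matched, and the search was checked on simulated data. It assumes the largest factor that fits, and a fold with 1 added to pull-down and input, which the ratios to input leave out. Intervals are exact (95%, Poisson or conditional binomial) and cover counting error only. Gene types came from RefSeq (GRCm38.p6, names only); 95.2% of 2061 symbols matched. Python 3.11.15 and scipy 1.17.1 were used. Members and lists were chosen with earlier results of these data known. All members were named, and list genes with a peak. Alternatives were q, fold, list length, input coverage, gene overlap and leaving out a list. Cell type lists were B cell, T cell, dendritic cell, mesothelium, neutrophil, mast cell and macrophage.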

Additional observations from a re-analysis of the deposited data

Results flagged for a closer look

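The Ctsl peak of 0 h list 1, at a fold of 4.06, lies outside the counted peaks because its centre was annotated as intergenic between exons 4 and 5. It held 136 fragments, against the 31.8 that its input coverage of 13.9 gives at the depth of the pull-down. The authors' peak caller selected it on that excess, and no peak list of a control sample was used here.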

How the results depend on the processing

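Of the 7 genes, 3 had a peak at a q of 1e-05 or less (Canx and Ctsl, 2 genes, at 0 h and 1, Ctss, later), and 1, Ctss, at a fold of 4 or more, with 0 at 0 h and 1 later. At a q of 0.05 or less 1 gene, Ctss, had a later peak, and 5 had any. A sustained loss was found for 0 genes and a sustained gain for 0 at each of these 3 thresholds. At matched input coverage the sustained gains numbered 0, and Tapbp kept its loss. With any overlap the sustained losses numbered 2, Tapbp and Ctsl. At equal list length, the 611 strongest peaks of each list, Tapbp and Ctss kept their patterns and Ifi30 dropped out. Leaving out each list in turn gave 2 to 5 genes with a 0 h peak and 1 to 3 sustained losses, 3 without 0 h list 2 (Tapbp, Calr, Ifi30) and 2 without 0 h list 1 (Tapbp, Ctsl). With 1 list fewer, a pattern asks for fewer peaks. At matched input coverage the peaks of Cd74 and Ifi30, both Ctss peaks of 24 h list 2 and the weaker Canx peak of 0 h list 1 no longer had a p of 0.005 or less. No paired analysis was possible because the lists carry no sample and no test was made.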
